A study of Sparus aurata with 8 samples.

Results

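A set of 99 mRNAs of the gilthead seabream (*Sparus aurata*) was led by a single library of ejaculated sperm, that of SPZ_EJ pool 1. They are 99 of the 31501 protein-coding features of the count table. A feature was chosen when its level in SPZ_EJ pool 1 was at least 10 CPM (counts per 1000000 counts of the library) and at least 5 times the larger of 1 CPM and the highest of the other 7 libraries. The members were therefore selected on their measured values in all 8 libraries, and their levels are given below as a description. Calls from fits across all features are printed for the members as a description too, since the rule used the same libraries.

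The study compared ejaculated spermatozoa (SPZ_EJ) with haploid germ cells of the testis (HGC, secondary spermatocytes and spermatids) by RNA-seq, to follow how the transcriptome changes while spermatids turn into sperm. Each group had 4 libraries, and each library was a pool of 3 captive adult males sampled in the natural breeding season. Sperm was stripped by gentle abdominal pressure from sedated fish and was not sorted, whereas HGC were sorted by DNA fluorescence from collagenase-treated testis. No fish carried a genetic change or received a treatment other than sedation or anaesthesia. Whether an SPZ_EJ pool and an HGC pool held the same males is not stated in the sources used here. SPZ_EJ pool 1 is 1 library of 3 males with no replicate of its own, so a trait of those fish, of that ejaculate and of that library preparation cannot be told apart.

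Mature spermatozoa have condensed chromatin and are believed to make little or no new RNA. The RNA they hold is thought to remain from spermatocytes and spermatids, or to be delivered by small vesicles from the ducts outside the testis. The study questioned whether such silence holds for teleost sperm in general. The source of the members' RNA was not tested. In teleosts sperm leaves the testis through ducts lined by epithelium, and stripped sperm is collected at the gonopore. Levels were compared between libraries for one mRNA at a time and not between mRNAs, because transcript lengths were not at hand.

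The mRNAs of SPZ_EJ pool 1 as a whole sat high relative to the other sperm libraries. SPZ_EJ libraries held 15395220 to 17886675 counts and HGC libraries 19865716 to 30645027. Protein-coding features took 81.0% of the counts in SPZ_EJ pool 1 and 52.4%, 68.7% and 70.6% in pools 2, 3 and 4, against 83.0% to 86.0% in HGC. Over the 18109 mRNAs with at least 1 CPM in a library, the median log2 ratio of pool 1 to the mean of pools 2 to 4 (with 0.5 CPM added) was 0.40, and -0.02 after TMM scaling, edgeR's correction for composition. The difference between the scalings was 0.43. Over the 99 members the median log2 ratio in CPM was 3.04. Genes of spermatids and flagellum, which should mark germ cells, summed to 514 CPM in SPZ_EJ pool 1 and to 586, 820 and 613 CPM in pools 2 to 4, against 9028 to 10538 CPM in HGC. Of 31 such genes tested, 25 were called lower in SPZ_EJ and 1 higher by edgeR's quasi-likelihood test (Benjamini-Hochberg adjusted p below 0.01 and a log2 fold change beyond 1), where 31.9% of all mRNAs tested were called lower and 23.9% higher.

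Together the 99 members held 11196 CPM in SPZ_EJ pool 1 and 1014, 1371 and 1394 CPM in pools 2, 3 and 4, against 376, 373, 416 and 430 CPM in HGC pools 1 to 4. In pool 1 this was 1.12% of all counts, with a 95% exact binomial interval of 1.11% to 1.12% that covers counting error only. Their levels in pool 1 ran from 10.5 CPM to 1102 CPM with a median of 44.9 CPM. Of the members, 30 were over 100 CPM and 22 under 20 CPM. The ratio of pool 1 to the highest other library, or to 1 CPM where that was larger, had a median of 6.74 and a maximum of 51.2. Set against the mean of the other 3 SPZ_EJ pools, the ratio had a median of 9.31. The highest other library was an SPZ_EJ pool for all 99 members, namely pool 4 for 40, pool 3 for 38 and pool 2 for 21.

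No other library led as many mRNAs. The same rule gave 1 mRNA for SPZ_EJ pool 2, 0 for pool 3 and 14 for pool 4, and 0, 2, 2 and 9 mRNAs for HGC pools 1 to 4. The count for pool 1 depended on the scaling. With TMM-scaled CPM it was 27 mRNAs, all of them among the 99, beside 2, 0 and 3 for SPZ_EJ pools 2 to 4 and 1, 2, 2 and 6 for HGC pools 1 to 4. With CPM taken over protein-coding counts only it was 64, of which 58 were among the 99. At a ratio of 3 in place of 5 the number for pool 1 was 446, and at a ratio of 10 it was 19.

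**Figure D1:**
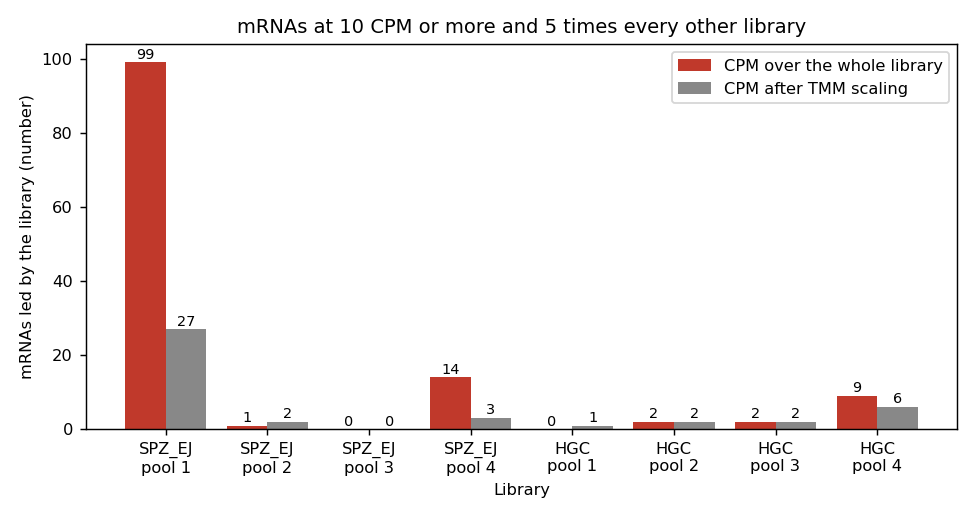
Number of mRNAs led by each of the 8 libraries (at least 10 CPM there and at least 5 times the larger of 1 CPM and the highest other library). Red bars use CPM over the whole library and grey bars CPM after TMM scaling. SPZ_EJ pool 1 leads 99 mRNAs in the first and 27 in the second, and no other library leads more than 14.

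The values next to the thresholds changed gradually. Among mRNAs with a ratio of at least 5, the 3 members nearest above 10 CPM were the large neutral amino acid transporter small subunit 1 at 10.5 CPM, Saurata1B015843 at 10.8 CPM and Saurata1B014773 at 10.9 CPM. Just below the level minimum lay dysbindin at 9.78 CPM and, at 9.49 CPM each, the macrophage mannose receptor 1 and the dual specificity testis-specific kinase 1. Among mRNAs of at least 10 CPM, members close above a ratio of 5 included neutral cholesterol ester hydrolase 1 at 5.01 and Saurata1B034604 at 5.08. Just under it were Saurata1B053730 at 4.99, interferon regulatory factor 4 at 4.88 and Saurata1B052240 at 4.84.

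A product name, given by homology with proteins of other species, was available for 73 members. The other 26, or 26.3% of the set, had none, compared with 32.1% of the 7936 mRNAs with at least 10 CPM in pool 1. The named members were sorted by known role, after their names had been seen, into 14 immune genes, 10 genes of lipid mediators, 14 genes of epithelium, adhesion and matrix, 6 hormone receptors, hormone precursors and transcription factors, 10 metabolic enzymes and transporters, 10 GTPases and signaling proteins, 7 genes known from muscle, nerve or pigment cells, and 2 others. With TMM-scaled CPM the rule still held for 2 of 14 immune, 2 of 10 lipid mediator, 1 of 10 metabolic and 2 of 10 GTPase and signaling members. It held for 8 of 14 epithelial, adhesion and matrix members and for 4 of 6 hormone receptor and transcription factor members. Of the muscle, nerve and pigment cell members it held for 2 of 7, of the others for 1 of 2 and of the unnamed for 5 of 26.

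Lipoxygenases were represented by 5 members. These enzymes add oxygen to arachidonic acid and other polyunsaturated fatty acids, and in mammals they act in leukocytes and in the outer layers of the skin. Arachidonate 15-lipoxygenase B (Saurata1B046890), which makes the 15-hydroperoxide of arachidonic acid in humans, had 434 CPM in SPZ_EJ pool 1, 18.3, 12.98 and 20.8 CPM in pools 2 to 4, and 0.145, 0, 0 and 0.151 CPM in HGC pools 1 to 4. Pool 1 stood 20.9-fold above the next library, yet pools 2 to 4 were also all above every HGC pool. A second feature of the same name (Saurata1B021131) had 177 CPM in SPZ_EJ pool 1, 4.03, 8.78 and 5.78 CPM in pools 2 to 4, and 0, 0, 0 and 0.101 CPM in HGC. The pattern of the pair was alike, with pool 1 apart, a low level in the other sperm pools and almost nothing in HGC.

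Arachidonate 12-lipoxygenase of the 12R type and the hydroperoxide isomerase ALOXE3 act one after the other on the lipids of the mammalian skin barrier. The 12R-type feature (Saurata1B021328) had 40.4 CPM in SPZ_EJ pool 1, 4.58, 5.27 and 4.55 CPM in pools 2 to 4, and 0, 0, 0 and 0.0503 CPM in HGC. One ALOXE3 feature (Saurata1B005230) had 12.999 CPM in SPZ_EJ pool 1 and 0.839, 1.44 and 1.62 CPM in pools 2 to 4, against at most 0.0503 CPM in an HGC pool. The other ALOXE3 member (Saurata1B012677) had 12.7 CPM in SPZ_EJ pool 1 and 1.62, 2.07 and 1.23 CPM in pools 2 to 4, against 0 counts in all HGC libraries, where 3 counts over the group would be 0.0325 CPM. All 5 lipoxygenase members thus showed pool 1 apart and the other sperm pools still above HGC.

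The family as a whole had 23 features, of which 17 reached 1 CPM in a library and 13 of these were highest in pool 1 among the SPZ_EJ libraries. The 13 include the 5 members, which are highest there by the rule. Over all mRNAs at that level the share highest in pool 1 was 48.1%. Lipoxygenases outside the set missed the level minimum of 10 CPM, led by less in pool 1 or did not lead there. Those named here were picked after their values were seen. An ALOXE3 feature (Saurata1B043500) missed only the level minimum, at a ratio of 6.67. It had 7.80 CPM in pool 1 and 0.727, 0.376 and 1.17 CPM in pools 2 to 4. Arachidonate 5-lipoxygenase (Saurata1B032876), which starts leukotriene synthesis in mammalian leukocytes, had 36.4 CPM in pool 1 and 5.20, 18.4 and 26.4 CPM in pools 2 to 4, against at most 0.0653 CPM in HGC. Pool 1 was thus its highest library, but pool 4 came close. Arachidonate 8S-lipoxygenase (Saurata1B023846) had 0 CPM in pool 1 and 0.0559, 30.4 and 85.0 CPM in pools 2 to 4, against at most 0.101 CPM in HGC. Estimated counts share reads between near-identical copies, so the split among the lipoxygenase features is uncertain.

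**Figure D2:**
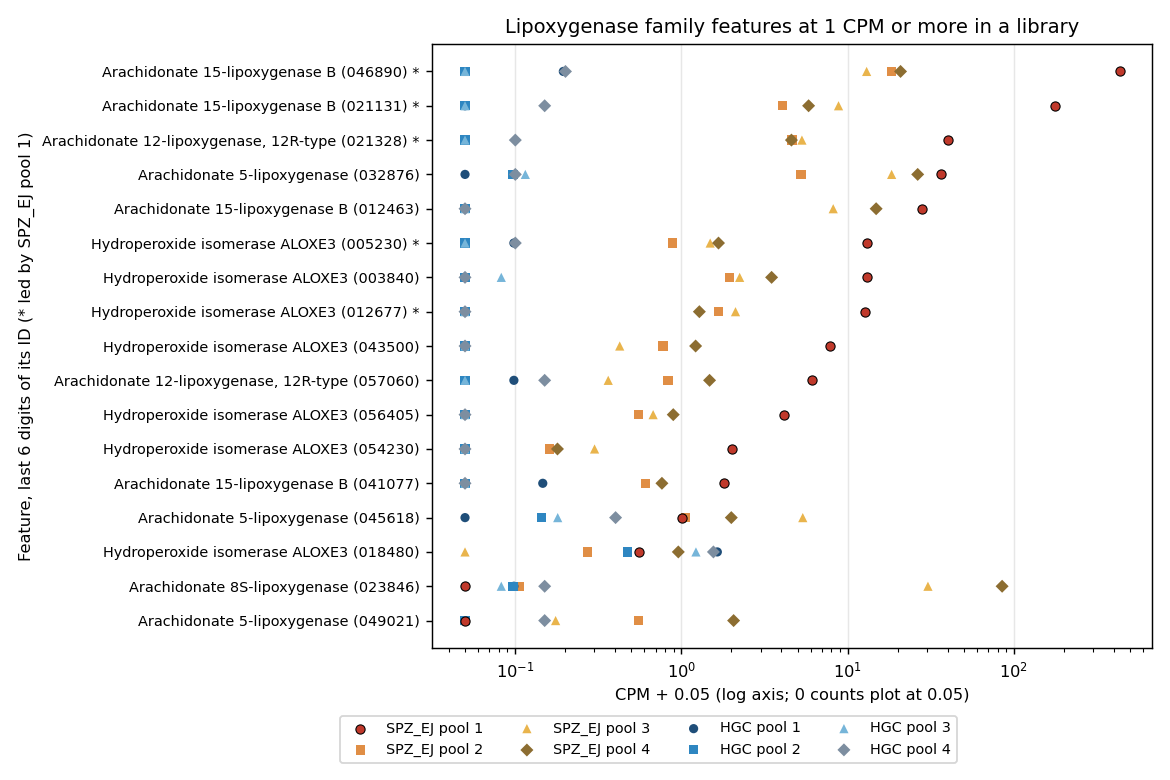
CPM + 0.05 on a log axis of the 17 lipoxygenase features with at least 1 CPM in a library, 1 point per library, with asterisks on the 5 members. In 13 features the red points of SPZ_EJ pool 1 lie right of the other SPZ_EJ pools, while 8S-lipoxygenase is at 0 in pool 1 and at 85.0 CPM in pool 4.

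Receptors of lipid mediators made up most of the rest of this group. The prostaglandin E2 receptor EP4, which raises cyclic AMP, had 129 CPM in SPZ_EJ pool 1, 16.0, 19.5 and 17.3 CPM in pools 2 to 4, and 2.23, 1.70, 4.57 and 1.86 CPM in HGC. Sphingosine 1-phosphate receptor 2 had 27.2 CPM in SPZ_EJ pool 1 and 3.75 to 5.07 CPM in pools 2 to 4, against 0 to 1.01 CPM in HGC. Hydroxycarboxylic acid receptor 2, a receptor for niacin and ketone bodies in mammals, had 15.9 CPM in SPZ_EJ pool 1 and 1.23 to 1.88 CPM in pools 2 to 4, against 0 to 0.654 CPM in HGC. In these 3 receptors the 3 lower sperm pools were close to each other and all above HGC. The thromboxane A2 receptor was at 11.1 CPM in SPZ_EJ pool 1 and at 0.224, 0.125 and 1.56 CPM in pools 2 to 4, against 0 to 0.403 CPM in HGC, so its lower sperm pools overlapped HGC. Cytochrome P450 2J6, of a family that makes epoxides of arachidonic acid in mammals, was at 14.98 CPM in pool 1.

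The 14 immune members summed to 1120 CPM in SPZ_EJ pool 1 and to 121, 154 and 141 CPM in pools 2 to 4, against 8.01 to 13.7 CPM in HGC. Pools 2 to 4 were all above every HGC pool for 14 of 14 members, where the share over all mRNAs was 35.4%. The rule bounded these libraries too, so the count is a description. The chemokine CXCL2 (Saurata1B032664), which draws neutrophils in mammals, had 127 CPM in SPZ_EJ pool 1, 12.2, 12.8 and 12.7 CPM in pools 2 to 4, and 0.0968, 0, 0 and 0.403 CPM in HGC. CXCL10 (Saurata1B052602), a chemokine induced by interferon that attracts T cells, had 45.4 CPM in SPZ_EJ pool 1, 3.24, 3.82 and 4.29 CPM in pools 2 to 4, and 0.0484, 0, 0 and 0.101 CPM in HGC. CCL19, a ligand of the lymphocyte homing receptor CCR7, had 118 CPM in SPZ_EJ pool 1, 18.9, 18.4 and 14.0 CPM in pools 2 to 4, and 0.242, 0.141, 0 and 0.352 CPM in HGC. The 3 chemokine features were thus nearly level across SPZ_EJ pools 2 to 4, with pool 1 above them by 6.22 to 10.6 times. Other CXCL2 and CXCL10 features, outside the set and named after their values were seen, led by less. One of CXCL10 (Saurata1B031356) had 282 CPM in pool 1 and 59.9, 83.6 and 65.5 CPM in pools 2 to 4. Another of CXCL2 (Saurata1B048795) had 355 CPM in pool 1 and 53.4, 111 and 102 CPM in pools 2 to 4.

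The receptor XCR1, a marker of cross-presenting dendritic cells in mammals, had 105 CPM in SPZ_EJ pool 1, 17.8, 8.15 and 7.66 CPM in pools 2 to 4, and 0.387, 0.141, 0 and 0.252 CPM in HGC. It was one of the members in which pool 2 was the highest of the lower sperm pools. Lysozyme g, an enzyme that breaks bacterial cell walls, was present as 2 members out of 5 features of that name. Saurata1B022034 had 112 CPM in SPZ_EJ pool 1, 9.90, 17.4 and 17.8 CPM in pools 2 to 4, and 0.359 to 1.21 CPM in HGC. Saurata1B051131 had 110 CPM in SPZ_EJ pool 1, 8.39, 16.0 and 11.8 CPM in pools 2 to 4, and 0 to 0.352 CPM in HGC. Another lysozyme g (Saurata1B054584), outside the set and named after its values were seen, led less, with 87.0 CPM in pool 1 and 24.3, 27.8 and 33.0 CPM in pools 2 to 4. Reads may be shared among these copies too.

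Genes of lymphocytes and cytotoxic cells completed the immune group. T-lymphocyte surface antigen Ly-9, a receptor of the SLAM family, had 166 CPM in SPZ_EJ pool 1, 18.7, 20.8 and 24.03 CPM in pools 2 to 4, and 1.45, 2.497, 2.74 and 2.11 CPM in HGC. GTPase IMAP family member 8, of a family of lymphocyte GTPases, had 93.5 CPM in SPZ_EJ pool 1 and 8.61, 14.9 and 13.1 CPM in pools 2 to 4, against 0.196 to 0.968 CPM in HGC. Perforin-1 (Saurata1B013576), the pore-forming protein of killer cells, had 67.2 CPM in SPZ_EJ pool 1 and 4.03, 12.5 and 8.90 CPM in pools 2 to 4, against 0.0942 to 1.89 CPM in HGC. It was 1 of 8 perforin-1 features, of which 7 reached 1 CPM in a library and 5 of those were highest in pool 1 among the sperm pools. The 5 include this member, which is highest there by the rule, and the share over all mRNAs was 48.1%. Another perforin-1 feature (Saurata1B051451), outside the set and named after its values were seen, went the other way. It had 1.41 CPM in SPZ_EJ pool 1 and 1.62, 4.33 and 6.50 CPM in pools 2 to 4, against 8.66, 10.9, 38.7 and 143 CPM in HGC. The β subunit of the interleukin-2 receptor differed from the other immune members in its HGC level. It had 59.7 CPM in SPZ_EJ pool 1, 11.4, 10.5 and 9.42 CPM in pools 2 to 4, and 5.85, 3.67, 4.44 and 7.30 CPM in HGC. Fc receptor 5 and the sialic acid-binding lectin 15, both surface proteins of immune cells in mammals, were at 38.4 CPM each in pool 1. An immunoglobulin kappa V region (Saurata1B052429) was at 26.96 CPM and butyrophilin 2A2 at 11.5 CPM.

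**Figure D3:**
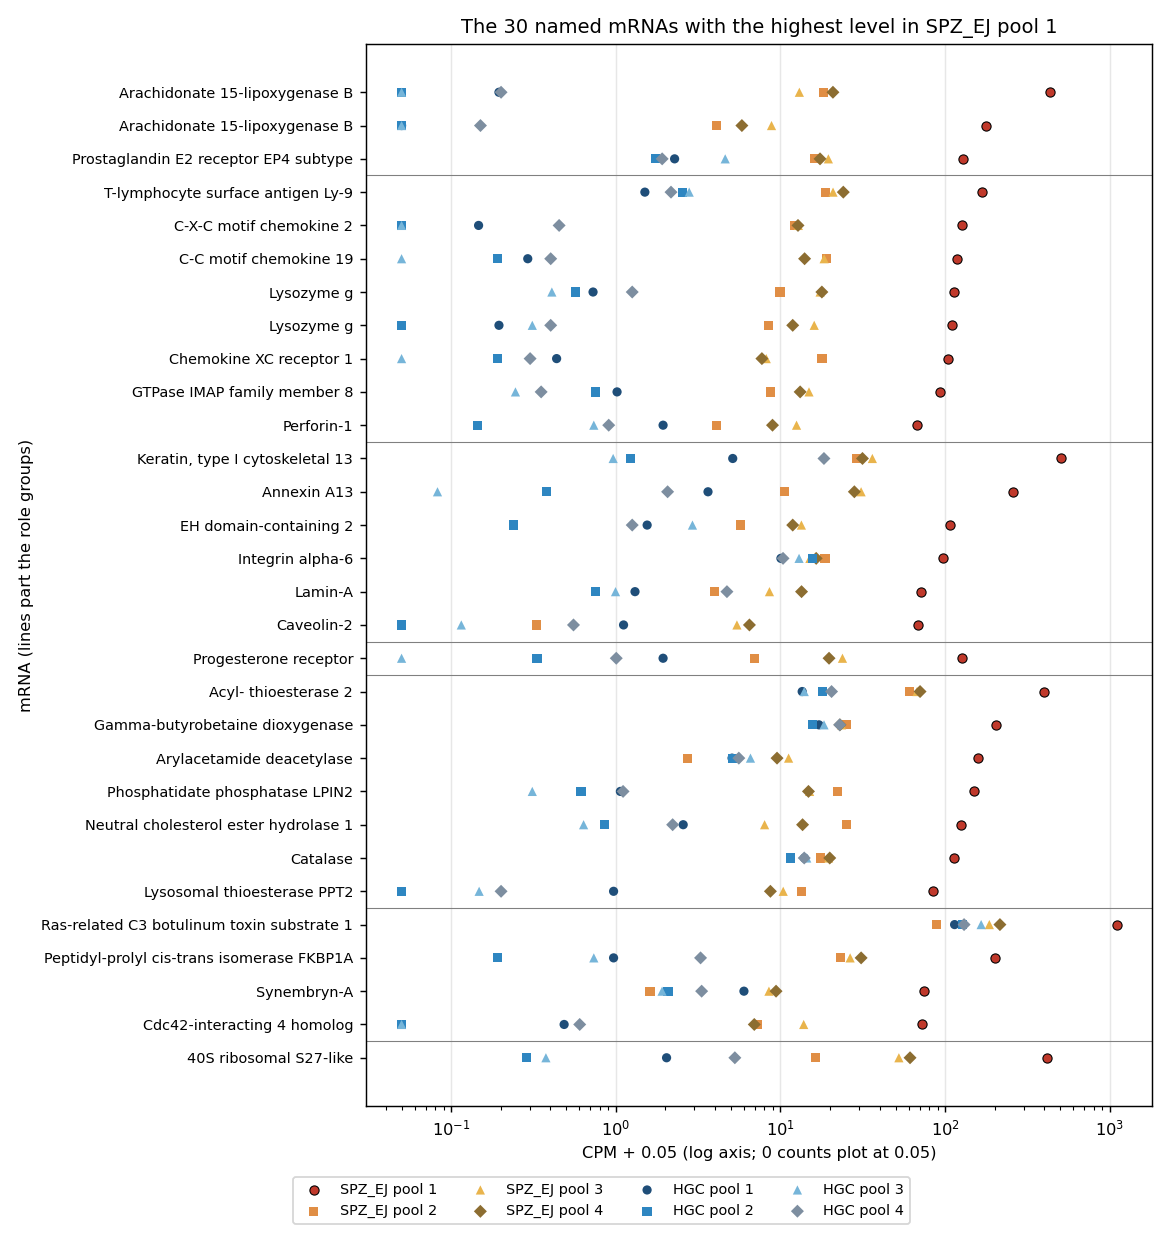
CPM + 0.05 on a log axis of the 30 named members with the highest level in SPZ_EJ pool 1, by role group from top to bottom (lipid mediators, immune, epithelium and matrix, hormone receptors, metabolic enzymes, GTPases and signaling, other), with 1 point per library. The immune mRNAs form 3 bands (pool 1, the other sperm pools, HGC), whereas for RAC1 and integrin α6 the other sperm pools and HGC overlap.

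Genes of epithelium and of contacts between cells were the other group of 14. Keratin 13 (Saurata1B026388), a type I keratin of stratified epithelia that do not cornify in mammals, had 503 CPM in SPZ_EJ pool 1, 28.9, 36.1 and 31.4 CPM in pools 2 to 4, and 5.08, 1.18, 0.914 and 18.3 CPM in HGC. Its HGC values spread widely, with HGC pool 4 nearest to the sperm pools. Annexin A13, an annexin of polarized epithelia in mammals, had 257 CPM in SPZ_EJ pool 1, 10.5, 30.8 and 28.1 CPM in pools 2 to 4, and 3.58, 0.330, 0.0326 and 2.01 CPM in HGC. Plakophilin-1 and plakophilin-3 are plaque proteins of desmosomes, the junctions that hold epithelial cells together. Plakophilin-3 (Saurata1B027380) had 41.8 CPM in SPZ_EJ pool 1, 2.96, 8.21 and 3.12 CPM in pools 2 to 4, and 0 to 0.823 CPM in HGC. Plakophilin-1 (Saurata1B008726) had 33.3 CPM in SPZ_EJ pool 1, 3.02, 4.07 and 3.77 CPM in pools 2 to 4, and 0.0942 to 0.726 CPM in HGC. With at least 1 CPM in a library, 3 of 7 plakophilin features (2 members) and 7 of 12 keratin features (1 member) were highest in pool 1 among the sperm pools. The members are highest there by the rule, and the share over all mRNAs was 48.1%. Of the keratins outside the set, named after their values were seen, keratin 8 (Saurata1B055739) had 1273 CPM in pool 1 and 222, 283 and 216 CPM in pools 2 to 4, which is 4.50-fold above the next library. Another keratin 8 feature (Saurata1B037713) went the other way, with 12.8 CPM in pool 1 and 22.4, 55.5 and 41.5 CPM in pools 2 to 4.

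Proteins of caveolae, small pits of the plasma membrane, were represented by caveolin-2 and EH domain-containing protein 2. Caveolin-2 had 68.3 CPM in SPZ_EJ pool 1, 0.280, 5.39 and 6.43 CPM in pools 2 to 4, and 1.06, 0, 0.0653 and 0.503 CPM in HGC. EH domain-containing protein 2 had 107 CPM in SPZ_EJ pool 1, 5.65, 13.4 and 11.8 CPM in pools 2 to 4, and 1.50003, 0.188, 2.87 and 1.21 CPM in HGC. In both, pool 2 was the lowest sperm pool, and for caveolin-2 it lay within the HGC range. Angiopoietin-related protein 4, a secreted inhibitor of lipoprotein lipase, was at 58.3 CPM in SPZ_EJ pool 1 and at 0.615, 5.02 and 2.08 CPM in pools 2 to 4, against 0.0471 to 1.01 CPM in HGC.

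Integrin α6, a laminin receptor, was one of the members whose lower sperm pools did not stand clear of HGC. It had 96.5 CPM in SPZ_EJ pool 1, 18.6, 15.05 and 16.4 CPM in pools 2 to 4, and 10.02, 15.5, 12.9 and 10.3 CPM in HGC. Lamin-A, of the nuclear lamina, had 71.5 CPM in SPZ_EJ pool 1, 3.91, 8.53 and 13.4 CPM in pools 2 to 4, and 1.26, 0.707, 0.946 and 4.68 CPM in HGC. The 72 kDa type IV collagenase, a protease of basement membranes also called matrix metallopeptidase 2, had 22.8 CPM in SPZ_EJ pool 1 and 2.74, 1.44 and 1.299 CPM in pools 2 to 4, against 0 to 0.145 CPM in HGC. Follistatin-related protein 3 and latent TGF-β-binding protein 3, both secreted regulators of growth factors of the TGF-β family, were at 40.2 and 28.2 CPM in pool 1. Protocadherin-12 was at 23.96 CPM and tensin-3, a focal adhesion protein, at 22.7 CPM.

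A progesterone receptor feature and an estrogen receptor feature were members. The progesterone receptor had 126 CPM in SPZ_EJ pool 1, 6.88, 23.8 and 19.7 CPM in pools 2 to 4, and 1.89, 0.283, 0 and 0.956 CPM in HGC. The feature named estrogen receptor (Saurata1B035979) had 52.2 CPM in SPZ_EJ pool 1, 0.447, 3.70 and 4.42 CPM in pools 2 to 4, and 1.79, 0.377, 0.131 and 1.01 CPM in HGC. Pool 2 was the lowest sperm pool for both receptors, and for the estrogen receptor it fell inside the HGC range. Over all mRNAs with at least 1 CPM in a library, 48.1% were highest in pool 1 among the sperm pools. Of the 5 features named for these receptors, 4 were, including the 2 members, which are highest there by the rule. The exception was an estrogen receptor β feature (Saurata1B006435) outside the set, with 57.3 CPM in SPZ_EJ pool 1 and 53.3, 107 and 85.5 CPM in pools 2 to 4, against 43.4 to 65.3 CPM in HGC.

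The other 4 members of this group had fewer counts. TBX1, a T-box transcription factor of pharyngeal development, had 29.2 CPM in SPZ_EJ pool 1 and 3.07, 2.57 and 1.56 CPM in pools 2 to 4, against 0 to 0.453 CPM in HGC. Proenkephalin-A, the precursor of the enkephalin opioid peptides, had 22.9 CPM in SPZ_EJ pool 1 and 0.0559, 2.01 and 1.75 CPM in pools 2 to 4, against 0 to 0.302 CPM in HGC. The nuclear receptor NR5A2, a regulator of steroid and bile acid genes in mammals, was at 16.1 CPM in pool 1, and the DNA-binding protein ARID5B at 19.2 CPM.

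Among the 10 metabolic members were enzymes that act on lipids or on lipid-modified proteins. The feature named acyl-protein thioesterase 2, an enzyme that removes palmitate from proteins, had 399.7 CPM in SPZ_EJ pool 1, 60.4, 67.5 and 70.4 CPM in pools 2 to 4, and 13.5, 17.9, 13.9 and 20.4 CPM in HGC. Lipin-2 (phosphatidate phosphatase LPIN2), which makes diacylglycerol for triglyceride synthesis, had 150.1 CPM in SPZ_EJ pool 1, 22.1, 14.98 and 14.7 CPM in pools 2 to 4, and 1.02, 0.565, 0.261 and 1.06 CPM in HGC. Neutral cholesterol ester hydrolase 1, which releases cholesterol from the lipid droplets of mammalian macrophages, had 126 CPM in SPZ_EJ pool 1, 25.05, 7.96 and 13.6 CPM in pools 2 to 4, and 2.52, 0.801, 0.587 and 2.16 CPM in HGC. In the last pair pool 2 was the highest of the lower sperm pools, the opposite of caveolin-2 and the estrogen receptor.

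For other enzymes HGC levels came near to those of the lower sperm pools or overlapped them. Catalase, which breaks down hydrogen peroxide, had 113 CPM in SPZ_EJ pool 1, 17.4, 19.6 and 19.9 CPM in pools 2 to 4, and 13.9, 11.4, 14.4 and 13.9 CPM in HGC. Gamma-butyrobetaine dioxygenase, the last enzyme of carnitine synthesis, had 205 CPM in SPZ_EJ pool 1, 25.3, 23.4 and 22.9 CPM in pools 2 to 4, and 17.1, 15.7, 18.3 and 22.9 CPM in HGC. Arylacetamide deacetylase, a lipid esterase of the liver in mammals, had 157 CPM in SPZ_EJ pool 1, 2.68, 11.2 and 9.48 CPM in pools 2 to 4, and 5.03 to 6.53 CPM in HGC. For this esterase pool 1 was 14.1-fold above the next library although pool 2 lay below every HGC pool. The lysosomal enzymes PPT2 and N-acetylglucosamine-6-sulfatase had 83.9 and 59.7 CPM in SPZ_EJ pool 1, with pools 2 to 4 between 7.84 and 13.3 CPM and no HGC pool above 0.919 CPM. Serine incorporator 5, a membrane protein that restricts retroviruses in mammals, was at 54.7 CPM in pool 1.

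The group of small GTPases and signaling proteins held members with high counts in pool 1. The feature named RAC1 (Ras-related C3 botulinum toxin substrate 1, Saurata1B038698), a small GTPase that acts as a switch of actin assembly, had 1102 CPM in SPZ_EJ pool 1, 88.3, 186 and 215 CPM in pools 2 to 4, and 114, 128, 166 and 130.3 CPM in HGC. Outside pool 1 its sperm and HGC levels overlapped. FKBP1A, a prolyl isomerase that binds the drug FK506, had 201 CPM in SPZ_EJ pool 1, 23.0, 26.5 and 30.9 CPM in pools 2 to 4, and 0.919, 0.141, 0.685 and 3.22 CPM in HGC. Synembryn-A, which loads G protein α subunits, had 74.3 CPM in SPZ_EJ pool 1, 1.57, 8.46 and 9.35 CPM in pools 2 to 4, and 5.95, 2.03, 1.86 and 3.27 CPM in HGC. The homolog of CDC42-interacting protein 4, which bends membranes at sites of actin assembly, had 72.1 CPM in SPZ_EJ pool 1 and 7.21, 13.8 and 6.89 CPM in pools 2 to 4, against 0 to 0.554 CPM in HGC.

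Other small GTPases stood in this group. The ADP-ribosylation factors 4D and 9 were at 53.7 and 11.6 CPM in pool 1. The catalytic subunit of cAMP-dependent protein kinase, whose activity drives sperm motility in many animals, had 28.1 CPM in SPZ_EJ pool 1 and 3.80, 4.64 and 5.002 CPM in pools 2 to 4, against 1.11 to 2.74 CPM in HGC.

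A small group of 7 members is known from muscle, nerve or pigment cells. Melanoma antigen recognized by T cells 1, a melanosome protein of pigment cells also called Melan-A, had 43.2 CPM in SPZ_EJ pool 1, 0.168, 0.313 and 0.974 CPM in pools 2 to 4, and 0, 0, 0 and 0.302 CPM in HGC. It had the second highest ratio of the set at 43.2 against the minimum of 1 CPM. Myosin light chain 4, of atrial and embryonic muscle in mammals, had 41.99 CPM in SPZ_EJ pool 1, 2.40, 6.64 and 6.37 CPM in pools 2 to 4, and 0 to 1.21 CPM in HGC. Calcium-binding protein 1, a neuronal relative of calmodulin, had 55.8 CPM in SPZ_EJ pool 1, 0.447, 9.15 and 5.91 CPM in pools 2 to 4, and 0.261 to 1.96 CPM in HGC. The potassium channel Kir6.1 (ATP-sensitive inward rectifier potassium channel 8) was at 27.9 CPM, the muscle receptor tyrosine kinase of the nerve-muscle synapse at 12.2 CPM, Kv channel-interacting protein 2 at 11.5 CPM and striated muscle M-protein at 11.2 CPM in pool 1. Muscle genes as a list did not follow pool 1, since 9 of 37 were highest there among the sperm libraries.

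The remaining named members were a ribosomal protein S27-like feature and ubiquitin hydrolase 43. The S27-like feature had 417 CPM in SPZ_EJ pool 1, 16.3, 52.3 and 61.2 CPM in pools 2 to 4, and 1.98, 0.236, 0.326 and 5.24 CPM in HGC. Ubiquitin carboxyl-terminal hydrolase 43 had 31.6 CPM in SPZ_EJ pool 1, 0.335, 6.14 and 2.79 CPM in pools 2 to 4, and 4.89, 6.03, 5.74 and 4.08 CPM in HGC, so that pools 2 and 4 lay below every HGC pool.

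Members without a product name included some with the most counts and the highest ratios. Saurata1B004974 had 885 CPM in SPZ_EJ pool 1, 107, 91.2 and 123 CPM in pools 2 to 4, and 79.5 to 116 CPM in HGC. Saurata1B033198 had 879 CPM in SPZ_EJ pool 1, 39.0, 165 and 116 CPM in pools 2 to 4, and 15.6 to 29.1 CPM in HGC. Saurata1B033644 had 567 CPM in SPZ_EJ pool 1 and 73.5, 73.4 and 76.9 CPM in pools 2 to 4, against 0.236 to 5.27 CPM in HGC. These 3 differed in their HGC level, which overlapped the lower sperm pools in the first and was far below them in the third. Saurata1B024568 was at 379 CPM in pool 1.

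The largest ratio of all was that of Saurata1B038459, with 103 CPM in SPZ_EJ pool 1, 0.783, 0.627 and 2.01 CPM in pools 2 to 4, and 0.141 to 1.51 CPM in HGC. Saurata1B014554 had 44.03 CPM in SPZ_EJ pool 1 and 0.224, 2.13 and 1.04 CPM in pools 2 to 4, against 0 to 0.302 CPM in HGC. Saurata1B048914 had 253 CPM in SPZ_EJ pool 1 and 14.4, 7.02 and 10.6 CPM in pools 2 to 4, against 0.0653 to 0.532 CPM in HGC. In the first of these the lower sperm pools overlapped HGC, as they did for Melan-A, whereas in the third they did not.

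How SPZ_EJ pools 2 to 4 compared with HGC is given for the members as a description, since the rule bounded these libraries too. For 70 of 99 members SPZ_EJ pools 2 to 4 were all above every HGC pool, where the share over all mRNAs with at least 1 CPM was 35.4%, and the rule, which used these libraries too, bears on the count. The mean of pools 2 to 4 was above the HGC mean for 97 of 99, and for none were pools 2 to 4 all below HGC. The shares over all mRNAs were not computed for these counts. The rule also kept out mRNAs with a high HGC level, so nothing is read from them. By role, pools 2 to 4 stood clear of HGC for 14 of 14 immune, 9 of 10 lipid mediator, 8 of 10 metabolic, 8 of 14 epithelial, adhesion and matrix, 6 of 10 GTPase and signaling, 3 of 6 hormone receptor and transcription factor, and 3 of 7 muscle, nerve and pigment cell members. HGC levels were low, with 53 members under 1 CPM in every HGC library, 8 members at 10 CPM or more in at least 1, and 3 members at 0 counts in all.

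SPZ_EJ pool 2, the library with the lowest share of mRNA, was the lowest of pools 2 to 4 for 59 members, pool 3 for 21 and pool 4 for 19. The shares over all mRNAs were not computed for these 3 counts, so nothing is read from them. For 18 of 99 members pool 2 was no more than 1/3 of the lower of pools 3 and 4, a share near the 15.6% over all mRNAs. Within HGC, pool 4 was the highest library for 49 members, where the share over all mRNAs was 39.9%, followed by pool 1 for 32, pool 3 for 12 and pool 2 for 6.

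When the groups were compared across 21375 features in edgeR, 88 of the 99 members passed the filter on low counts. Of these, 55 were called higher in SPZ_EJ, where 23.9% of the 15302 mRNAs tested were called higher. None of the members was called lower, where 31.9% of mRNAs were, and none was lower at an unadjusted p below 0.05 by edgeR or by DESeq2. The rule used this contrast, so nothing is read from these counts. Among the 30 named members with the highest levels 22 were called. Those not called included RAC1 with a log2 fold change of 0.68 ± 0.53 (SE), catalase with 0.82 ± 0.49, integrin α6 with 0.77 ± 0.49 and keratin 13 with 3.67 ± 1.11. Each SE was calculated back from the fold change and the F statistic of the edgeR test. DESeq2 gave no p-value to 33 of the 99 members, which is its default for counts with an outlying library, where it gave none to 0.403% of the 26578 mRNAs with counts. The rule chose mRNAs with 1 library far above the others, so nothing is read from this gap. Of the 66 members with a p-value in DESeq2, 50 were called higher, where 16.4% of mRNAs were.

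Without SPZ_EJ pool 1, 43 of 88 members tested were called higher in pools 2 to 4 than in HGC, where 22.4% of mRNAs were, and all 43 were among the 55. The rule bounded pools 2 to 4 and HGC as well, so these counts and those by role are a description and nothing is read from them. The median log2 fold change over the 88 was 2.83, beside -0.40 over all mRNAs tested, and with pool 1 it was 4.16, beside -0.29. By role, 12 of 13 immune and 6 of 9 lipid mediator members tested were called without pool 1. In the same fit 6 of 10 metabolic, 3 of 14 epithelial, adhesion and matrix, 3 of 10 GTPase and signaling, 2 of 4 hormone receptor and transcription factor, and 0 of 5 muscle, nerve and pigment cell members were called. For 11 members the log2 fold change fell below 0 when pool 1 was left out, among them RAC1 at -0.46, arylacetamide deacetylase at -0.26, gamma-butyrobetaine dioxygenase at -0.22, integrin α6 at -0.15 and catalase at -0.14.

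**Figure D4:**
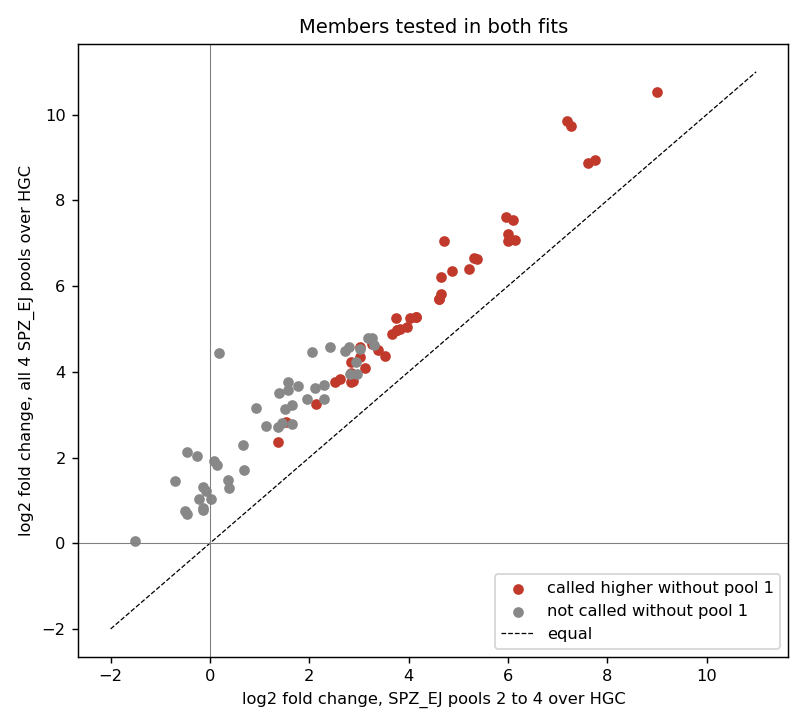
Fitted log2 fold changes over HGC of the 88 members tested in both edgeR fits, with SPZ_EJ pools 2 to 4 on the horizontal axis and all 4 SPZ_EJ pools on the vertical axis. Points lie above the dashed line of equality because pool 1 is high by selection; the 43 red points were called without pool 1, and 11 points lie left of 0.

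Marker genes of leukocytes, none of them a member, were also high in pool 1. In a list of general leukocyte genes, 15 of 15 with at least 1 CPM in a library were highest in pool 1 among the SPZ_EJ libraries, where the share over all mRNAs was 48.1%. After TMM scaling it was 14 of 15, where the share was 33.8%. They summed to 4130 CPM in SPZ_EJ pool 1 and to 1730, 1979 and 1858 CPM in pools 2 to 4, against 40.2 to 73.5 CPM in HGC. Pool 1 was thus 2.23-fold above the mean of the other sperm pools. The one with the most counts, coronin-1A of the leukocyte cytoskeleton, had 1440 CPM in SPZ_EJ pool 1 and 640.3, 760 and 678 CPM in pools 2 to 4, against 21.9 to 35.4 CPM in HGC. All 15 tested were called higher in SPZ_EJ, where 23.9% of mRNAs were. Several of the 15 features share a product name, either receptor-type tyrosine phosphatase C or tyrosine kinase SYK. Reads may be shared among such copies, so the 15 are not independent. As the libraries are bulk RNA, more cells of a type and more RNA per cell cannot be told apart, and the part of leukocytes in the members' levels was not tested. The study judged its SPZ_EJ samples nearly free of non-sperm cells, from strongly reduced ribosomal RNA peaks and from immunofluorescence microscopy. It reported low RNA integrity in SPZ_EJ and high integrity in HGC, which differs between the groups for every level given here.

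Most other immune lists lay above the share over all mRNAs of 48.1%, and that of T and NK cells lay near it. Pool 1 was highest among the sperm libraries for 32 of 39 genes of macrophages and antigen presentation, 28 of 34 of granulocytes (7 of them members), 45 of 54 of B cells (1 member), 12 of 22 of T and NK cells (1 member), 79 of 98 cytokines, chemokines and their receptors (5 members) and 25 of 38 interferon-induced genes. The members are highest there by the rule. The granulocyte list holds lipoxygenase genes, among them the 5 lipoxygenase members. Its count therefore overlaps that of the lipoxygenase family above and is not separate from it. After TMM scaling, where the share over all mRNAs was 33.8%, the counts were 20 of 37 for macrophages, 24 of 34 for granulocytes, 34 of 51 for B cells, 11 of 22 for T and NK cells, 71 of 95 for cytokines and 17 of 38 for the interferon list. Without members, summed levels in pool 1 were 2.17-fold to 3.53-fold above the mean of the other SPZ_EJ pools in these lists. The highest of these, that of T and NK cells, was 2.28-fold without its 2 features with the highest level in pool 1, an omission chosen after the data were seen. Called higher in SPZ_EJ were 29 of 35 tested genes of the macrophage list, 23 of 25 of granulocytes, 36 of 43 of B cells, 11 of 14 of T and NK cells, 53 of 85 of cytokines and 26 of 33 of the interferon list, beside 23.9% of all mRNAs tested. In each of these lists 1 gene was called lower, apart from the interferon list with 3. Where a list holds members, its counts of calls include them. The rule used this contrast, so nothing is read from the calls of such lists. Immediate-early and stress genes, which respond quickly to many stimuli, were highest in pool 1 for 16 of 20.

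Lists of other cell types, apart from endothelium, lay around or below the share over all mRNAs. Epithelial genes were highest in pool 1 for 16 of 46 (3 members), fibroblast and matrix genes for 17 of 49 (1 member), muscle genes for 9 of 37 (1 member), endothelial genes for 7 of 10 and genes of thrombocytes and clotting for 7 of 16. The count was 4 of 10 for erythrocytes, 11 of 23 for liver and plasma, 3 of 8 for the digestive tract, 10 of 38 for neurons, 1 of 7 for kidney and urinary tract, 1 of 9 for testis somatic cells and 0 of 2 for oocytes. It was 3 of 31 for spermatids and flagellum and 0 of 13 for cell cycle genes. After TMM scaling, where the share over all mRNAs was 33.8%, the endothelial count was 4 of 10. Although few epithelial genes were highest in pool 1, the list without its members summed to 3070 CPM there and to 1132, 1397 and 1477 CPM in pools 2 to 4, against 857 to 1108 CPM in HGC. Of that sum, 2 keratin features, keratin 8 (Saurata1B055739) and keratin 18 (Saurata1B045583), held 1273 and 840 CPM in pool 1. Without them, likewise chosen after the data were seen, it was 958 CPM in SPZ_EJ pool 1 and 312, 553 and 775 CPM in pools 2 to 4, against 836 to 1104 CPM in HGC, so that pool 1 lay within the HGC range. The part of epithelium in the members' levels was not tested.

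**Figure D5:**
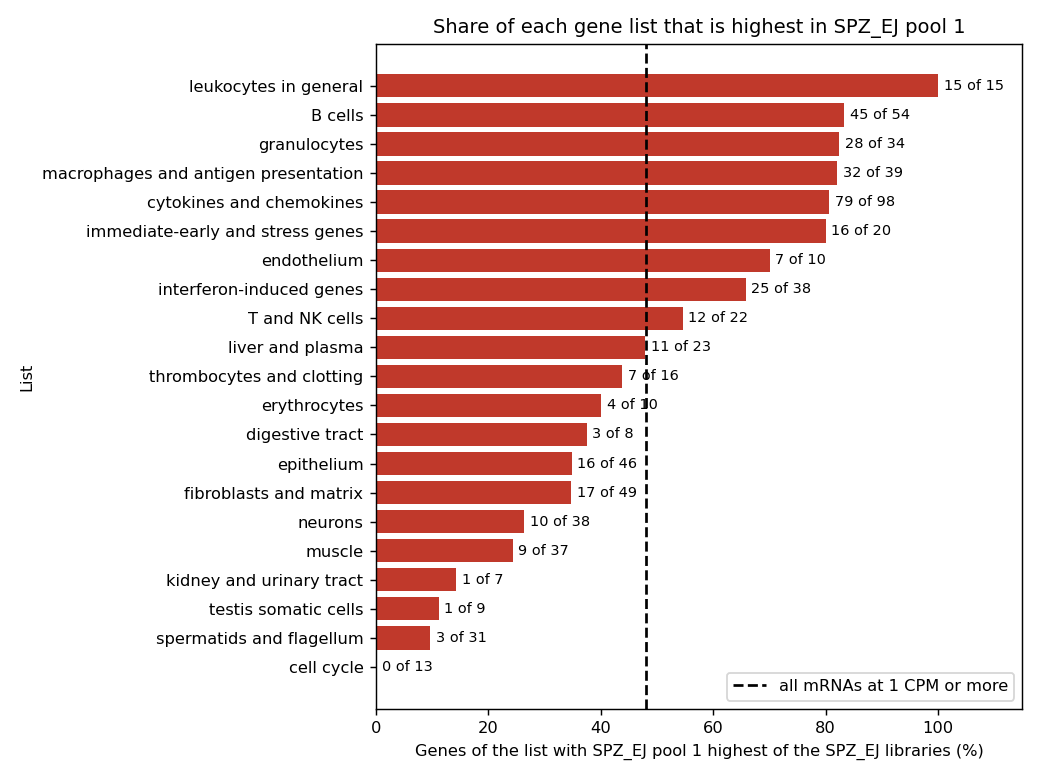
Percent of the genes of each list with at least 1 CPM in a library for which SPZ_EJ pool 1 was the highest of the SPZ_EJ libraries, with the numbers beside the bars and the share over all mRNAs (48.1%) as a dashed line; the oocyte list with 2 genes is left out. The general leukocyte list reaches 15 of 15, some of them features that share a product name, whereas spermatids and flagellum are at 3 of 31 and cell cycle genes at 0 of 13.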

How the data were processed

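RNA was measured by unstranded SMARTseq2 libraries, with oligo-dT priming and PCR, from 4 SPZ_EJ and 4 HGC pools of 3 males each. The authors mapped reads with STAR 2.5.3a to their improved reference and deposited RSEM 1.3.0 expected counts per gene, as whole numbers without normalization. From these, CPM was computed over all 197399 features of a library. The group comparison used edgeR 4.0.16 (filterByExpr, TMM, quasi-likelihood test, Benjamini-Hochberg over 21375 features, called at an adjusted p below 0.01 and a log2 fold change beyond 1), with no replicate block. The same fit was also run on simulated counts with 200 changed genes. These were drawn with the same spread in every library and without an outlying pool, and the outcome is not reported here. DESeq2 1.42.0 with default settings, other scalings, filters, thresholds and omission of each library were alternatives. Other computations used R 4.3.3, Python 3.11.15, numpy 2.4.6, pandas 2.3.3, scipy 1.17.1 and matplotlib 3.10.9.

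The members, the 22 gene lists, the alternatives and the rule for naming genes were chosen with earlier results of these data known, and role groups and the spelling of list patterns after product names were seen. Named were the 30 members with the highest level in pool 1 and a product name, the 10 highest ratios, neighbors of each threshold, members in a list or a shared family, and unnamed members among the 10 highest levels or ratios; other names were picked after their values were seen. Results of a few members that this rule names are not reported here. Product names come from homology, and the table drops the word protein from them, which is restored here. P-values set the difference between SPZ_EJ and HGC against the spread between pools within a group. In that spread, fish, collected sample and library preparation cannot be told apart. PCR reads are not independent molecules.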

Additional observations from a re-analysis of the deposited data

Results flagged for a closer look

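In each group of 4 libraries the gap of an outlying library was divided by the range and set against Dixon's 95% critical value, for 72 measures, of which 9 passed; chance passes about 1 in 20. Members' own levels in SPZ_EJ were left out because the rule fixes them. Many measures rest on the same libraries, so the passes are not independent. In SPZ_EJ the library apart was pool 1 in the summed levels, without members, of 5 gene lists. The ratio was 0.896 for general leukocyte genes and 0.957 for macrophages and antigen presentation, whose sum was 14370 CPM in SPZ_EJ pool 1 beside 5656 to 6034 CPM in pools 2 to 4. It was 0.853 for B cells, with 6315 CPM in pool 1 beside 2126 to 2742 CPM, and 0.900 for cytokines and chemokines, with 5925 CPM beside 1841 to 2248 CPM. It was 0.923 for the liver and plasma list, whose sum is carried by apolipoprotein Eb. Without the 2 features with the highest level in pool 1, left out after the data were seen, the macrophage list summed to 5330 CPM in pool 1 beside 2298 to 2948 CPM. The B cell list then summed to 3485 CPM beside 1089 to 1642 CPM. The Dixon ratio was not computed for these smaller sums. All sums are CPM without TMM scaling, in which mRNAs of pool 1 sat high as a whole.

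In HGC, pool 3 stood apart in total counts, with a ratio of 0.873 and 30645027 counts. Among named members, catalase had a low value in HGC pool 2 (11.4 CPM, ratio 0.831), PPT2 a high value in HGC pool 1 (0.919 CPM, ratio 0.836) and lamin-A a high value in HGC pool 4 (4.68 CPM, ratio 0.861).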

How the results depend on the processing

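The number of mRNAs led by SPZ_EJ pool 1, 99, moved to 446 at a ratio of 3, to 19 at a ratio of 10, to 27 with TMM-scaled CPM and to 64 with CPM over protein-coding features. It was 122 and 77 at level minimums of 5 and 20 CPM, 79 without the 20 most abundant features, and 99 to 148 with another library left out. Against SPZ_EJ pools 2 to 4 only, a setting chosen after seeing the data, it was 109. The count of members called higher in SPZ_EJ, 55, ran from 43 to 79 over 16 alternatives, with 43 to 65 when 1 library was left out and 43 without SPZ_EJ pool 1. Counts of members called lower were 0 in each of these alternatives. All mRNAs called, 8540, ran from 7298 to 10017. Of the list genes 341 of 618 were highest in pool 1, beside 271 of 608 after TMM scaling and 283 of 418 at 5 CPM. With the replicate number as a block, 57 members were called. Pools with the same number deviated together with correlations of 0.117, 0.0155, 0.0125 and 0.0818 across features, so the numbers were not taken as pairs.

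For the 30 named members with the highest levels, 407 of 440 alternative values kept their direction and side of the threshold. The 440 hold no DESeq2 value for named members to which DESeq2 gave no p-value. Among these are RAC1, keratin 13 and both 15-lipoxygenase B members. Calls were lost in 15 values of 5 members, among them annexin A13, EH domain-containing protein 2 and lamin-A without SPZ_EJ pool 1, and gained in 13 values of 3 members. The direction turned in 5, in each case without SPZ_EJ pool 1. With 1 library left out, the log2 fold change ran from -0.46 to 1.05 for RAC1, from -0.22 to 1.502 for gamma-butyrobetaine dioxygenase, from -0.26 to 2.58 for arylacetamide deacetylase, from -0.14 to 1.23 for catalase and from -0.15 to 1.17 for integrin α6, with the highest value each time without SPZ_EJ pool 4. The cause of these changes was not tested beyond the library left out. With 1 library of pool 1, no depth or replicate separates its fish from its preparation, and 11 members were under the count filter of the main fit.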

Other observations

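The lncRNA features, which entered the fit across all features but are not described above, gave 22 features led by SPZ_EJ pool 1 under the same rule, beside 2, 1 and 6 led by SPZ_EJ pools 2 to 4 and 0 led by any HGC pool. The highest was Saurata1ncB117541, with 364 CPM in SPZ_EJ pool 1 and 19.8, 32.5 and 28.8 CPM in pools 2 to 4, against 0 to 6.34 CPM in HGC. Saurata1ncB033786 had 308 CPM in SPZ_EJ pool 1 and 3.41, 3.01 and 3.90 CPM in pools 2 to 4, against 0 to 3.96 CPM in HGC. The libraries carry no strand information, so reads of a lncRNA and of an overlapping gene cannot be told apart.

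The 14 mRNAs led by SPZ_EJ pool 4 included nephronectin, an integrin ligand of basement membranes, and the potassium channel subfamily K member 5, as well as syntaxin-11, a fusion protein of killer cell granules. The 9 mRNAs led by HGC pool 4 included the hemoglobin subunits beta and alpha-A and prostaglandin G/H synthase 1, the enzyme that starts prostaglandin synthesis.

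Apolipoprotein Eb, a lipid carrier that macrophages also make in mammals and the leading gene of the liver and plasma list, was at 38817 CPM in SPZ_EJ pool 1, and that list, which has no member, summed to 39534 CPM in SPZ_EJ pool 1 and to 13655, 14019 and 15656 CPM in pools 2 to 4, against 496 to 604 CPM in HGC. Without its 2 features with the highest level in pool 1, left out after the data were seen, the list summed to 351 CPM in SPZ_EJ pool 1 and to 529, 942 and 741 CPM in pools 2 to 4, against 450 to 577 CPM in HGC, so that pool 1 was then the lowest sperm pool.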
